A study of Drosophila melanogaster with 30 samples.

Results

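The genes described here encode secreted digestive and antibacterial enzymes of the fly gut: the Jonah serine proteases, the trypsins named by Greek letters, the c-type lysozymes and the Mal-A maltases of Drosophila melanogaster. They were picked by FlyBase symbol alone (Jon, Mal-A or Lys with the digit or capital that follows, or a Greek letter name joined to Try), which gave 41 of the 16868 genes in the count files, namely 16 Jonah proteases, 10 trypsins, 7 lysozymes and 8 maltases. RNA was measured in 30 libraries, 2 for each of 15 groups that combine a tissue, a sex and a set of sex chromosomes.

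Whole bodies were taken from 2-day-old adults, in 3 female genotypes, XXYohio, XXYcongo and XX, and 3 male genotypes, XYYohio, XYYcongo and XY. The labels join the first pair of letters of each genotype with a caret, a notation they do not explain. Ovaries and testes of 2-day-old adults and central nervous systems (CNS) of female third-instar larvae were measured in the matching genotypes. Flies with an added Y (Yohio or Ycongo) were set against XX or XY controls of the same sex. Per the labels the strains came from genetic manipulation. Nothing read here says how they were made or whether the 2 replicates came from separate cultures, and p-values then measure only the spread between libraries, which may be technical.

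Digestion of a yeast and sugar diet in the fly takes place mainly in the midgut, whose enterocytes secrete these enzymes into the gut lumen. Trypsins cut proteins after lysine or arginine, Jonah proteases belong to the same family of serine endopeptidases, maltases are alpha-glucosidases that release glucose from maltose and related sugars, and c-type lysozymes break down the peptidoglycan of bacterial cell walls. Each family is made of tandem gene copies, and its members are known for marked differences by gut region, life stage and diet.

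Total counts lay between 6026258 and 15363636 per library. Levels are in CPM, a gene's share of the counts of its library, scaled with TMM factors computed over the 12 body libraries together and over the 6 libraries of every other tissue. A count of 0 allows up to 3 counts, which was 0.236 to 0.443 CPM in a body library. FDY, a Y-linked gene, had 10.7 and 13.3 CPM in XXYohio bodies and 8.46 and 10.3 CPM in XXYcongo bodies, against 0.236 and 0.459 CPM (3 and 5 counts) in XX bodies, so that female bodies followed the labels. It was also lower in the controls, but well above 0, in the larval CNS (34.6 and 19.6 CPM in XXYohio and 26.6 and 19.9 CPM in XXYcongo, against 13.5 and 8.21 CPM in XX, or 109 and 74 counts) and present in XX ovaries with 3.469 and 1.495 CPM. In these tissues FDY separates the groups but does not show that the control lacks a Y. Male bodies had 12.6 and 9.91 CPM of FDY in XYYohio and 6.88 and 3.29 CPM in XYYcongo, against 5.32 and 1.79 CPM in XY. There XYYohio lay above XY, while XYYcongo overlapped XY, so FDY does not show the further Ycongo in male bodies. Counts from mitochondrially encoded genes took 33.2% and 5.21% of the XXYohio, 25.4% and 33.5% of the XXYcongo and 25.2% and 9.26% of the XX body libraries. In males they took 15.7% and 9.37% of the XYYohio, 10.1% and 40.1% of the XYYcongo and 14.0% and 13.9% of the XY body libraries.

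In the Ensembl BDGP6.54 annotation, whose build may not be the authors', the members lie in tandem runs. All 8 maltases are neighbours on chromosome arm 2R (8449664 to 8473961), and 7 trypsins from zetaTry to gammaTry are neighbours on the same arm (11339186 to 11349870). LysB, LysD, LysE, LysP and LysS form a run on 3L (1207371 to 1228238). The Jonah genes stand in smaller runs, among them the Jon65A genes with 4 copies on 3L (6039155 to 6054443) and the Jon99C genes with 3 on 3R (29922216 to 29926189). Members of one run are not independent, and copies such as gammaTry and deltaTry or LysB, LysD and LysE are so alike that reads may have been split between them. No member had counts identical to those of another gene. LysC is annotated as a pseudogene whose exon overlaps LysD on the other strand, and Jon44E, Mal-A1, Mal-A8 and deltaTry overlap exons of other genes on the opposite strand. Since the strandedness of the libraries is not given, reads in a shared stretch cannot be told apart from those of the overlapping gene. For LysC, which ends at 1210726, and LysD, which begins at 1210717, that stretch is short. The lengths of the other overlaps were not measured.

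Of the 41 members, 40 had reads in bodies. An average of at least 10 CPM was reached by 34 members over the 6 female and by 29 over the 6 male body libraries. LysS, a lysozyme known from the larval gastric caeca, had 0 counts in all 12 body libraries and 15 counts in all 30 libraries. Per kilobase of exon, the highest mean levels over the 12 bodies were those of alphaTry with 467 CPM per kb, Mal-A1 with 454, betaTry with 370 and Jon99Cii with 307. Among the lysozymes LysD stood highest with 139 CPM per kb. The spread was wide: LysD averaged 66.5 ± 59.5 CPM, Jon99Fii 182 ± 170 CPM and Jon99Cii 265 ± 213 CPM (SD, n = 12 libraries). Mal-A5 had the smallest SD relative to its mean of the 40 detected members, with 70.1 ± 12.2 CPM (SD, n = 12).

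Female and male bodies differed in part of these enzymes. In XX against XY bodies 11 of 16 Jonah proteases, 4 of 10 trypsins and 4 of 6 tested lysozymes were higher, and 3 of 8 maltases were lower. Between the control sexes, edgeR's quasi-likelihood test with Benjamini-Hochberg adjustment, fitted over 13318 genes, put 19 of 40 tested members higher in XX than in XY bodies and 3 lower at an adjusted p below 0.05 (called from here on). Of all genes tested, 12.5% were called higher and 22.7% lower. The 19 were 11 Jonah proteases, 4 trypsins (deltaTry, epsilonTry, gammaTry, thetaTry) and 4 lysozymes (LysB, LysC, LysD, LysP), and the 3 were the maltases Mal-A4, Mal-A7 and Mal-A8. In whole bodies, fewer cells of a type and less RNA per cell cannot be told apart.

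Jon99Fi (FBgn0039778), a Jonah protease, was the member with the largest fold among those called. It had 14.0 and 17.1 CPM in XXYohio, 17.8 and 19.5 CPM in XXYcongo and 11.7 and 62.1 CPM in XX females. In males it had 0.480 and 0.668 CPM in XYYohio, 0.933 and 2.09 CPM in XYYcongo and 0.866 and 1.70 CPM in XY. Every female library lay above every male library. Between XX and XY the log2 fold change was 4.81 ± 0.77 (SE), 28.1 times as much, with an edgeR adjusted p of 0.000273. The XY values were small, where a count of 0 allows up to 0.371 and 0.283 CPM in these libraries, so the size of this fold is uncertain.

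Jon65Ai (FBgn0035667), another Jonah protease, showed the same separation. Its level was 28.6 and 58.2 CPM in XXYohio, 25.7 and 35.0 CPM in XXYcongo and 26.8 and 59.1 CPM in XX females. XYYohio males had 2.16 and 3.34 CPM, XYYcongo males 8.17 and 2.42 CPM and XY males 1.11 and 3.11 CPM. The lowest female library exceeded the highest male library, and XX stood 19.9 times as high as XY (log2 fold change 4.31 ± 0.73 (SE), edgeR adjusted p = 0.000412).

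Jon65Aii, its neighbour, had 35.5 and 38.2 CPM in XXYohio, 62.4 and 38.6 CPM in XXYcongo and 13.2 and 75.0 CPM in XX females, against 3.24 and 9.24 CPM in XYYohio, 7.47 and 9.22 CPM in XYYcongo and 1.36 and 5.38 CPM in XY males. Again the sexes did not overlap (XX against XY 3.68 ± 0.83 (SE), edgeR adjusted p = 0.00364, and 0.0537 without XX replicate 2). Jon66Ci and Jon66Cii, adjacent genes with low levels, had 4.41 and 28.7 CPM and 0.788 and 10.5 CPM in XX, against 1.11 and 0.660 CPM and 0.371 and 0.0943 CPM in XY. Jon66Cii had at most 3 counts in each of the 6 male libraries, the limit that a count of 0 allows, and passed the filter on low counts only through the female libraries, so its call is against that floor and no fold is given. Their calls were lost without XX replicate 2 (edgeR adjusted p = 0.109 and 0.338) and without XY replicate 2 (0.0663 and 0.11), and that of Jon66Cii without XY replicate 1 as well (0.0539).

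Some Jonah proteases with higher levels were called higher in XX as well, among them Jon99Fii and Jon25Bii. Jon99Fii had 382 and 162 CPM in XXYohio, 158 and 428 CPM in XXYcongo and 276 and 493 CPM in XX females, against 14.8 and 58.6 CPM in XYYohio, 61.4 and 64.3 CPM in XYYcongo and 17.9 and 64.1 CPM in XY males. The groups of the 2 sexes did not overlap, and XX against XY gave 3.23 ± 0.80 (SE, edgeR adjusted p = 0.00664, and 0.068 without XY replicate 1). Jon25Bii had 328 and 286 CPM in XX, against 18.8 and 63.2 CPM in XY (2.90 ± 0.65 (SE), edgeR adjusted p = 0.00337). Jon25Bii was called without any one library.

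Jon65Aiv had 116 and 219 CPM in XXYohio, 236 and 133 CPM in XXYcongo and 199 and 435 CPM in XX females, against 122 and 135 CPM in XYYohio, 149 and 106 CPM in XYYcongo and 79.9 and 100 CPM in XY males. The control sexes were apart, while males with a further Y overlapped all female groups except XX. XX against XY gave 1.81 ± 0.50 (SE, edgeR adjusted p = 0.0117, and 0.125 without XX replicate 2 or 0.0886 without XY replicate 1). Jon99Cii, the Jonah gene with the highest level per kilobase, had 232 and 447 CPM in XXYohio, 175 and 275 CPM in XXYcongo and 203 and 835 CPM in XX females, against 140 and 299.6 CPM in XYYohio, 283 and 20.4 CPM in XYYcongo and 48.3 and 216 CPM in XY males. The sexes overlapped, and it was not called (edgeR adjusted p = 0.163). Of the remaining Jonah proteases called, Jon25Biii had 135 and 274 CPM in XX, against 26.6 and 59.3 CPM in XY, and Jon99Ciii 121 and 292 CPM in XX, against 25.7 and 57.6 CPM in XY. Jon44E had 3.86 and 12.4 CPM in XX, against 1.61 and 2.26 CPM in XY. All 3 lost the call without XX replicate 2 (edgeR adjusted p = 0.0632, 0.12 and 0.315) and without XY replicate 1 (0.0867, 0.131 and 0.138), in the order named, and Jon44E without XY replicate 2 (0.0699).

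Among the trypsins, the pair with the highest level per kilobase was not called. The trypsin alphaTry had 347 and 439 CPM in XXYohio, 344 and 330 CPM in XXYcongo and 498 and 775 CPM in XX females, against 401 and 326 CPM in XYYohio, 568 and 239 CPM in XYYcongo and 286 and 263 CPM in XY males. Its neighbour betaTry had 213 and 345 CPM in XXYohio, 404 and 299.6 CPM in XXYcongo and 519 and 941 CPM in XX females, against 408 and 388 CPM in XYYohio, 432 and 220 CPM in XYYcongo and 257 and 334 CPM in XY males. In both, XX lay above XY while groups with an added Y overlapped between the sexes, and XX against XY had edgeR adjusted p of 0.063 and 0.0533. The trypsin thetaTry had 40.6 and 61.2 CPM in XX, against 14.0 and 10.7 CPM in XY (2.04 ± 0.39 (SE), edgeR adjusted p = 0.00106), and epsilonTry 54.3 and 222 CPM in XX, against 19.8 and 34.3 CPM in XY (2.35 ± 0.74 (SE), edgeR adjusted p = 0.024). The call of epsilonTry was lost without XX replicate 2 (0.343), XY replicate 1 (0.164) or XY replicate 2 (0.0607). The near-identical gammaTry and deltaTry, with 4.65 and 10.8 CPM and 5.67 and 11.4 CPM in XX, against 1.36 and 1.79 CPM and 0.989 and 2.26 CPM in XY, were called as well. Without XX replicate 2 their edgeR adjusted p was 0.124 and 0.117, without XY replicate 1 0.0923 and 0.142, and without XY replicate 2 that of gammaTry was 0.0517. The remaining trypsins zetaTry, etaTry, iotaTry and lambdaTry had log2 fold changes between -0.16 and 0.78, and none was called.

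LysP (FBgn0004429), a lysozyme known from adult salivary glands, had its highest levels in control females. It had 52.3 and 56.0 CPM in XXYohio, 68.4 and 61.6 CPM in XXYcongo and 125 and 163 CPM in XX females, against 15.5 and 33.2 CPM in XYYohio, 37.5 and 65.7 CPM in XYYcongo and 17.8 and 27.6 CPM in XY males. Only XYYcongo replicate 2 reached the female range. The XX against XY log2 fold change was 2.66 ± 0.46 (SE, edgeR adjusted p = 0.000507), 6.34 times as much. The midgut lysozyme LysB had 18.8 and 64.7 CPM in XX, against 2.47 and 5.47 CPM in XY (3.38 ± 0.71 (SE), edgeR adjusted p = 0.00223), and every female library of LysB lay above every male one.

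LysD had 60.6 and 107 CPM in XXYohio, 42.0 and 67.6 CPM in XXYcongo and 58.5 and 240 CPM in XX females, against 41.5 and 47.5 CPM in XYYohio, 55.3 and 11.4 CPM in XYYcongo and 22.8 and 44.6 CPM in XY males. XX lay above XY, while the other groups overlapped in part (2.14 ± 0.75 (SE), edgeR adjusted p = 0.0396). That call was lost without XX replicate 2 (0.484), XY replicate 1 (0.23), XY replicate 2 (0.0699) and either XYYohio library (0.0515). LysC, whose short overlap with LysD may hold reads of either gene, had 18.6 and 62.5 CPM in XX, against 6.31 and 11.9 CPM in XY (edgeR adjusted p = 0.0383). The call of LysC was lost without XX replicate 2, XXYohio replicate 2, XY replicate 1 or XY replicate 2. Its log2 fold change was then 0.97, 2.17, 1.82 and 2.69, in the order named. LysX, known from the midgut at metamorphosis, had 12.6 and 55.3 CPM in XXYohio, 11.8 and 19.1 CPM in XXYcongo and 16.4 and 58.9 CPM in XX females, against 20.7 and 53.0 CPM in XYYohio, 32.5 and 25.2 CPM in XYYcongo and 34.4 and 36.8 CPM in XY males. The XY values lay inside the range of XX. LysE and LysX gave log2 fold changes of 0.31 and 0.08 with edgeR adjusted p of 0.661 and 0.944.

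Of the 8 maltases 3 were called, all lower in XX, and the pair with the highest level per kilobase was not among them. Mal-A1 (FBgn0002570), the maltase with the highest level in bodies, had 329 and 530 CPM in XXYohio, 248 and 467 CPM in XXYcongo and 412 and 613 CPM in XX females, against 1642 and 1244 CPM in XYYohio, 1474 and 524 CPM in XYYcongo and 1105 and 1360 CPM in XY males. XYYcongo replicate 2 alone reached the female range, and XX against XY was not called (log2 fold change -1.27 ± 0.57 (SE), edgeR adjusted p = 0.103). Mal-A6, next in level per kilobase among the maltases, had 262 and 358 CPM in XXYohio, 160 and 253 CPM in XXYcongo and 221 and 401 CPM in XX females, against 820 and 876 CPM in XYYohio, 1255 and 366 CPM in XYYcongo and 609 and 875 CPM in XY males, with the same single overlap (-1.25 ± 0.58 (SE), edgeR adjusted p = 0.113).

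The 3 maltases called were lower in level. Mal-A8 had 62.6 and 66.9 CPM in XX, against 197 and 220 CPM in XY (-1.69 ± 0.47 (SE), edgeR adjusted p = 0.0122, and 0.0748 without XX replicate 1 or 0.0533 without XY replicate 2). Mal-A4 had 23.8 and 17.2 CPM in XX, against 54.8 and 68.0 CPM in XY (-1.58 ± 0.40 (SE), edgeR adjusted p = 0.00778, and 0.0556 without XX replicate 2 or 0.0534 without XY replicate 2). Mal-A7 had 111 and 53.0 CPM in XXYohio, 81.3 and 92.1 CPM in XXYcongo and 145 and 108 CPM in XX females, against 550 and 288 CPM in XYYohio, 318 and 181 CPM in XYYcongo and 326 and 413 CPM in XY males. Every female library of Mal-A7 lay below every male one (-1.54 ± 0.49 (SE), edgeR adjusted p = 0.0262, and between 0.0555 and 0.117 without any 1 of the XX and XY libraries). Both XX libraries lay below both XY libraries in 7 of the 8 maltases and in no other member, where 37.5% of all genes did, and above them in 25 members, where 29.7% did.

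Mal-A5 (FBgn0050359), which lies inside this run (2R, 8462753 to 8465092) and ends just before Mal-A6 begins on the same strand (8465158), was the exception. It had 77.5 and 75.5 CPM in XX, against 77.7 and 74.9 CPM in XY. The values overlapped, and the log2 fold change was 0.00 ± 0.35 (SE, edgeR adjusted p = 0.994).

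**Figure D1:**
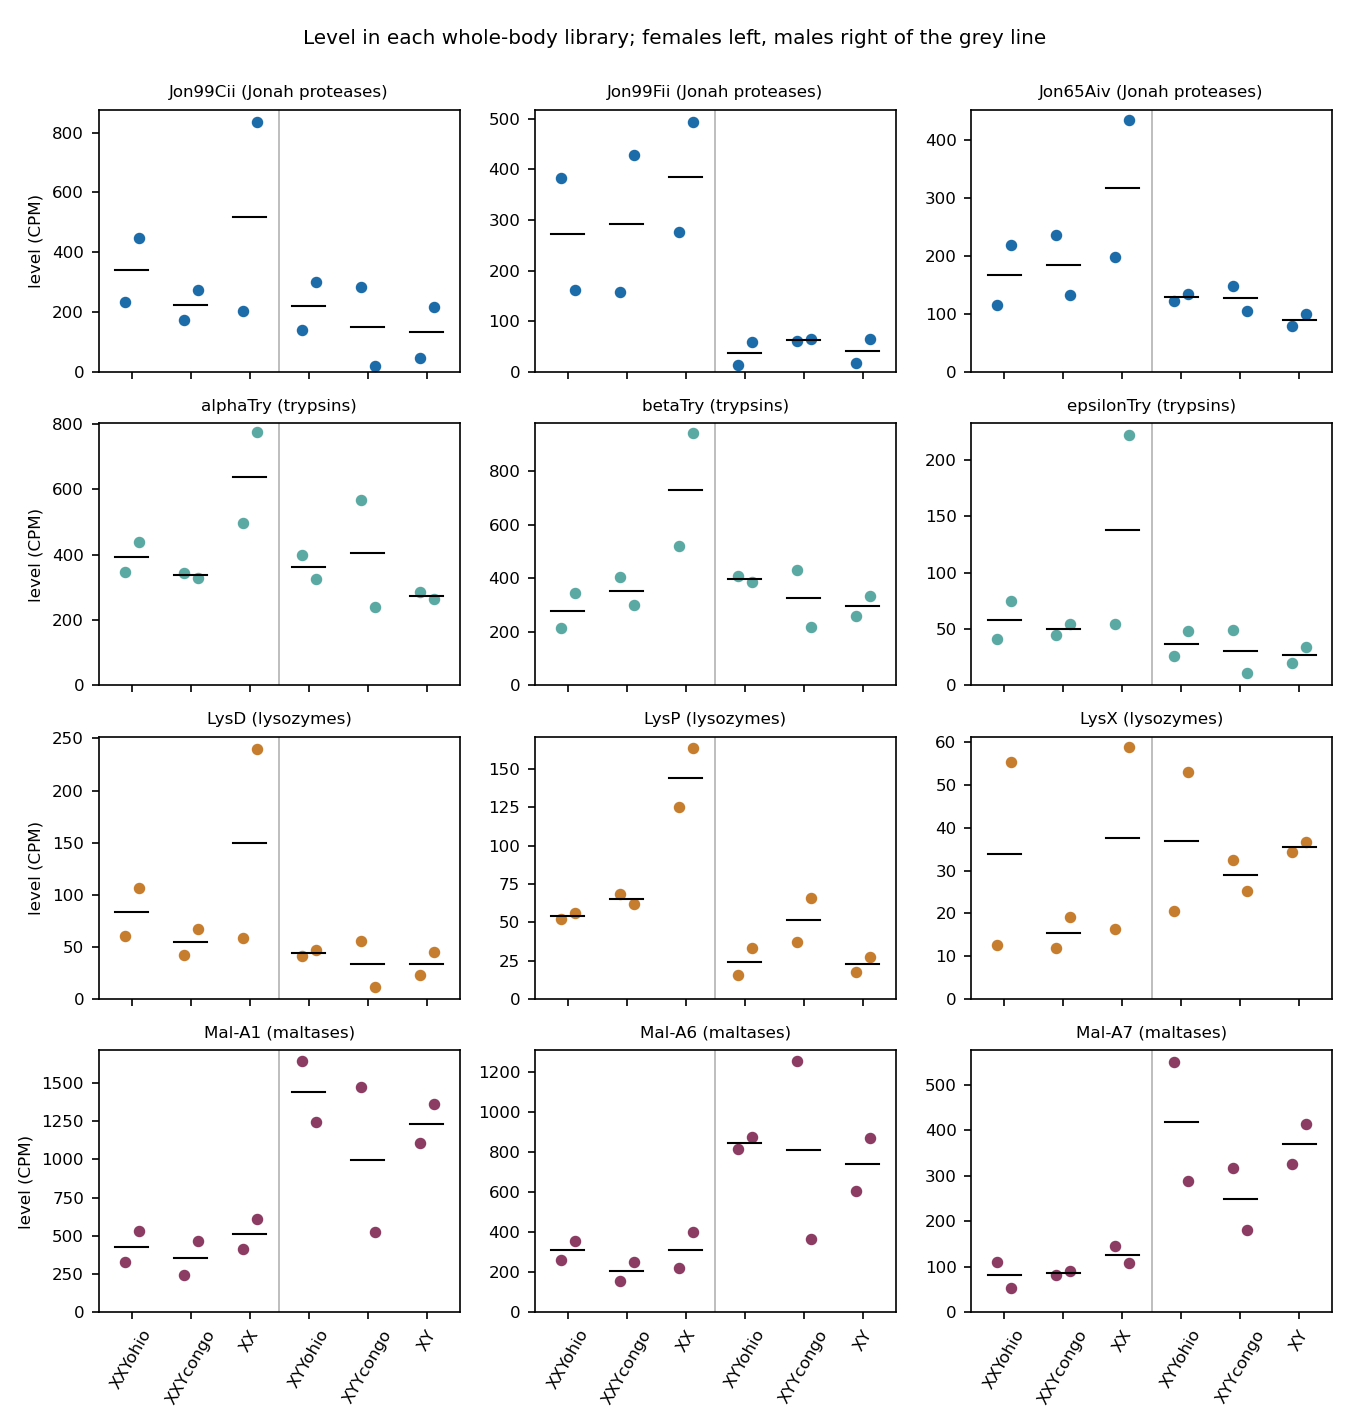
Level in CPM (vertical axis, from 0) of the 3 members of each class with the highest mean level over bodies, in each of the 12 body libraries (points, 2 for each genotype on the horizontal axis) with the group mean (line). Mal-A7 lies between 53.0 and 145 CPM in the 6 female libraries and between 181 and 550 CPM in the 6 male libraries, while Jon99Fii lies between 158 and 493 CPM in females and between 14.8 and 64.3 CPM in males.

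**Figure D2:**
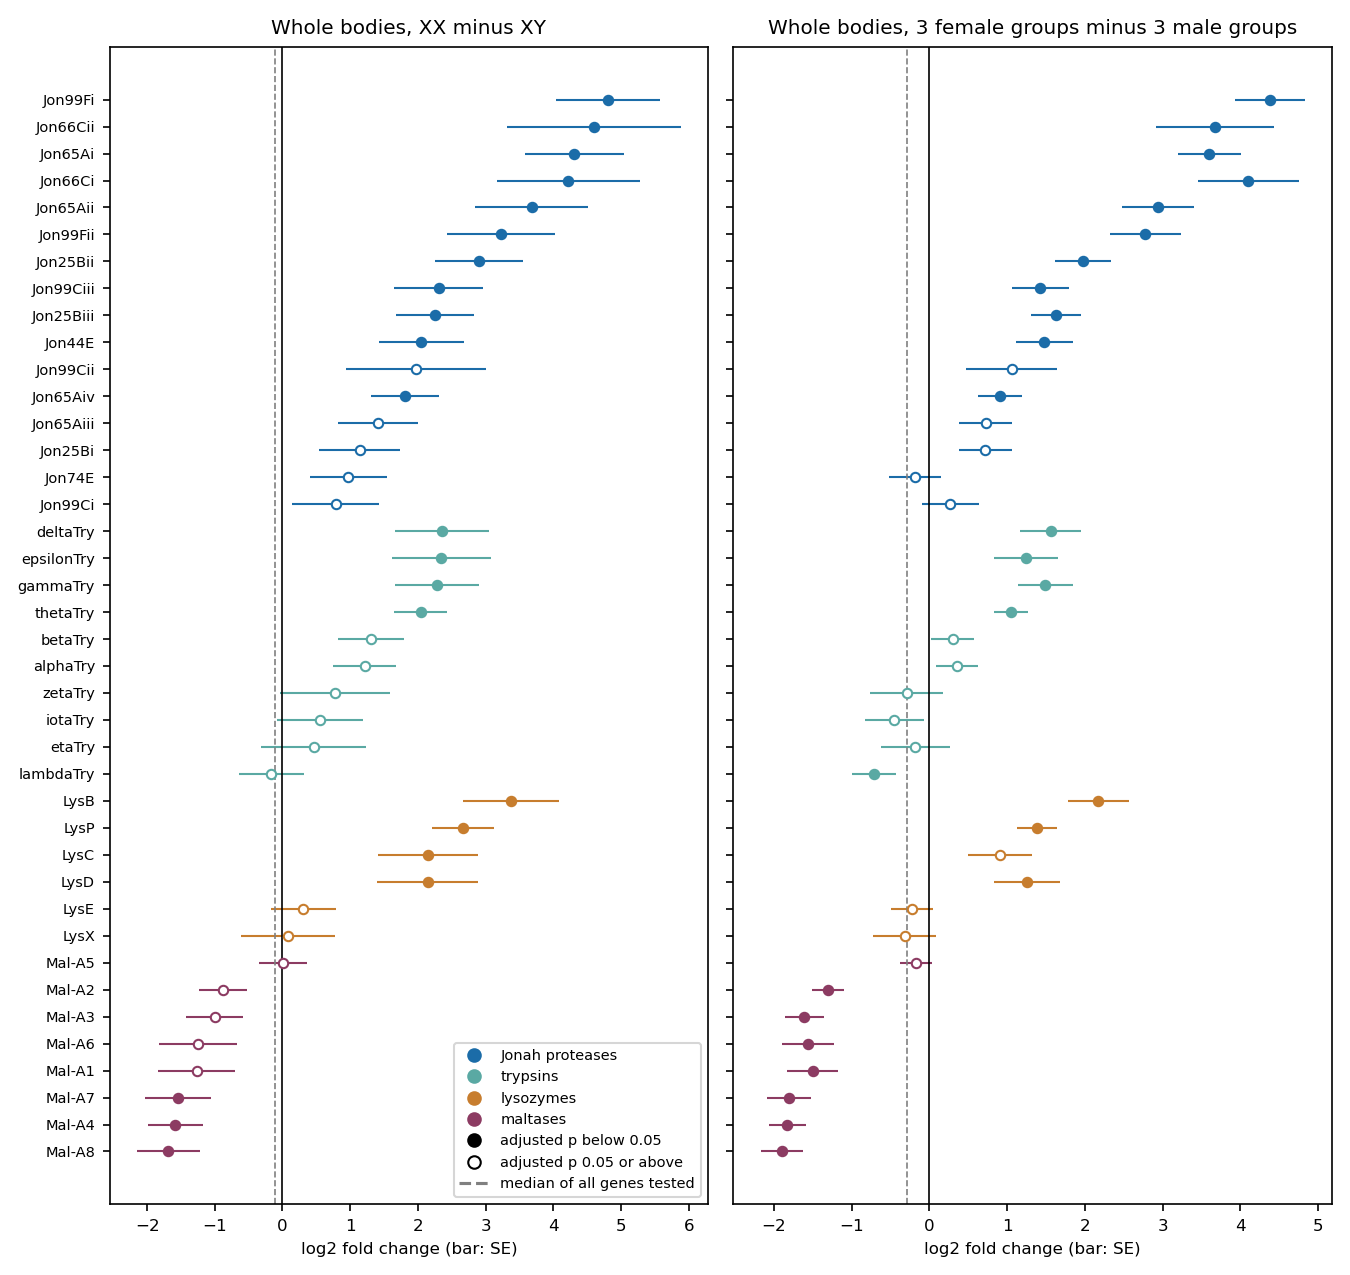
The log2 fold change (point) and its standard error (bar) of the 40 tested members, by class, for XX minus XY (left) and for the mean of 3 female minus 3 male genotypes (right); filled points were called by edgeR. In this scaling all 16 Jonah proteases lie right of the median of all genes (dashed line) in both panels, and all maltases except Mal-A5 lie left of it.

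How many members were called depended on a few libraries and on the scaling. Without XX replicate 2 the call was made for 7 higher and 1 lower members (11.2% and 20.2% of all genes), without XY replicate 1 for 8 and 2 (6.95% and 18.6%), and without XY replicate 2 for 12 and 0 (7.4% and 20.3%). The members Jon25Bii, Jon65Ai, Jon99Fi, LysB, LysP and thetaTry stayed called without any one of the 12 libraries. TMM factors computed over all 30 libraries moved the median log2 fold change of all genes to -0.94, from -0.11 with the factors of the 12 bodies, and then 10 members were called higher and 7 lower, where 5.29% of all genes were higher and 37.2% lower. Relative to that median, 16 of 16 Jonah proteases and 6 of 6 tested lysozymes lay above it and 7 of 8 maltases below it under TMM over the 12 bodies, RLE scaling, raw library totals and TMM over all 30 libraries. With the factors of the 12 bodies, the median of the Jonah proteases lay 2.38 above that of all genes, that of the lysozymes 2.25 and that of the trypsins 1.37 above it, and that of the maltases stood at -1.15 relative to it.

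Averaged over the 3 genotypes of each sex, 18 members were called higher in females and 8 lower, where 28.0% of all genes were called higher and 39.3% lower. Here, as between XX and XY, sex and the set of Y chromosomes differ together. The 8 were the maltases other than Mal-A5 and lambdaTry, whose edgeR adjusted p of 0.0398 was between 0.0515 and 0.104 in 10 of the 12 fits that left out 1 library. It had 8.00 and 10.9 CPM in XXYohio, 9.43 and 8.87 CPM in XXYcongo and 10.1 and 29.9 CPM in XX females, against 26.7 and 20.7 CPM in XYYohio, 17.3 and 11.9 CPM in XYYcongo and 23.6 and 21.1 CPM in XY males, which overlap through XX replicate 2. The maltases Mal-A2 and Mal-A3 did not overlap, with 35.1 to 68.5 CPM and 12.7 to 22.6 CPM in the 6 female libraries, against 95.4 to 142 CPM and 29.8 to 68.0 CPM in the 6 male libraries. Higher were the 11 Jonah proteases of the control comparison, deltaTry, epsilonTry, gammaTry, thetaTry, LysB, LysD and LysP. The calls of LysD and epsilonTry were lost without XX replicate 2 (edgeR adjusted p = 0.0843 and 0.0791) and without XY replicate 1 (0.056 and 0.0512). LysD also lost it without XXYohio replicate 2 (0.0509), and epsilonTry without XYYohio replicate 1 (0.05). Mal-A4 gave the smallest adjusted p of the maltases (-1.83 ± 0.24 (SE), edgeR adjusted p = 1.86e-05), and Jon99Fi of all members (4.38 ± 0.45 (SE), edgeR adjusted p = 2.08e-06). With TMM factors over all 30 libraries, which put the median of all genes at -1.18, 8 members were called higher and 15 lower, where 12.3% of all genes were higher and 7996 of 13318 lower. All 6 female libraries lay above all 6 male ones for 12 members, and below them for the 5 maltases Mal-A2, Mal-A3, Mal-A4, Mal-A7 and Mal-A8, where 17.3% of all genes lay wholly above and 27.2% wholly below.

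A ratio of sums within a library does not depend on the scaling. The maltase sum over the Jonah sum was 0.616 and 0.606 in XXYohio, 0.436 and 0.629 in XXYcongo and 0.635 and 0.397 in XX bodies. It was 4.64 and 2.94 in XYYohio, 3.26 and 3.48 in XYYcongo and 6.48 and 3.95 in XY bodies. No female library came near a male one. The Jonah and trypsin sum over the maltase sum lay between 2.34 and 4.05 in the 6 female and between 0.401 and 0.663 in the 6 male libraries.

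**Figure D3:**
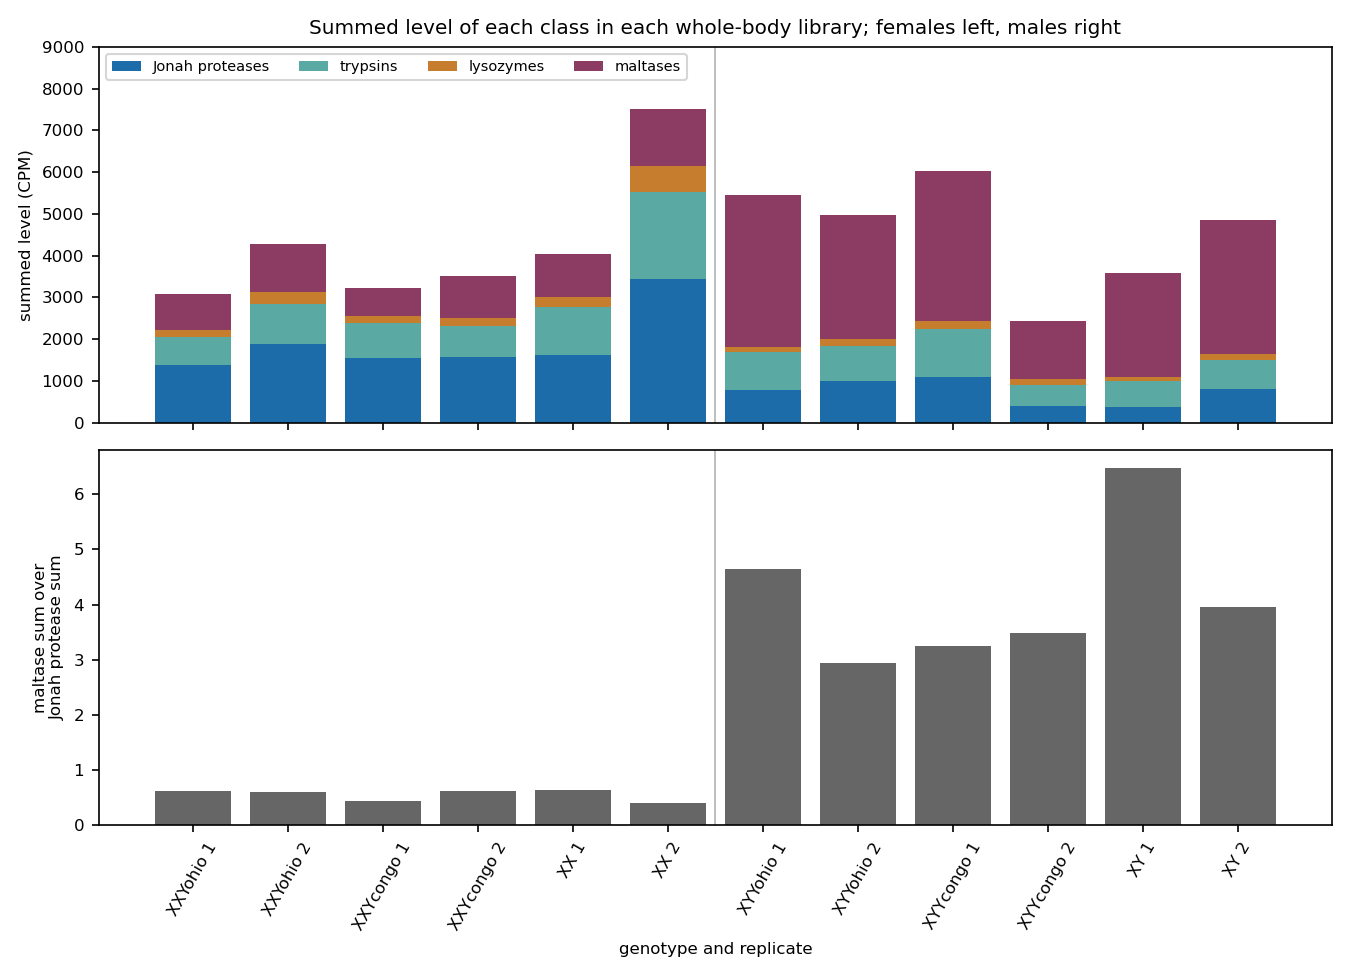
Summed CPM of each class (stacked bars, top) and the maltase sum divided by the Jonah sum (bars, bottom) in each of the 12 body libraries, named by genotype and replicate. The ratio lies between 0.397 and 0.635 in the 6 female libraries and between 2.94 and 6.48 in the 6 male libraries, and XX replicate 2 has the highest total, 7505 CPM.

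Other genes differed between the same bodies. Of 24 further digestive enzyme genes, 23 were tested between XX and XY, 9 lay above 0 and 5 were called: Bace (an aspartic protease), the serine protease yip7 and Npc2e were higher in XX, and the alpha-glucosidase genes Mal-B2 and tobi were lower. Of 6 gut amidase and recognition genes, the peptidoglycan amidases PGRP-SC1a and PGRP-SC1b, which like lysozymes act on bacterial walls, were called higher in XX. The summed level of the 6 went the other way, with 59.5 and 73.0 CPM in XX, against 161 and 78.8 CPM in XY. Of 13 genes that mark midgut identity, 4 lay above 0 (median -0.19) and 1, cad, was called higher. Their summed level was 753 and 694 CPM in XX, against 594 and 587 CPM in XY. In separately scaled levels the same genes summed to 327 and 361 CPM in XX ovaries and to 184 and 208 CPM in XY testes. The sum in bodies therefore does not stand for the midgut alone. Of the eggshell and yolk list, 13 of 13 genes were called higher in XX, and of the seminal fluid list 8 of 8 were called lower. Of 11 photoreceptor genes 9 were called higher in XX. The part of these tissues in the differences of the members was not tested.

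The next question was what an added Y changed. In female bodies edgeR called 0 of 40 members with either added Y and with the mean of both, and 0 of all 10459 genes (0.0%). The members nevertheless lay mostly on one side of XX. With Yohio 37 of 40 lay below 0 (median log2 fold change -0.65, all genes -0.01) and with Ycongo 39 of 40 (median -0.97, all genes -0.02). These comparisons share the XX libraries. At an unadjusted p under 0.05 there were 4 members with Yohio, where 9.35% of all genes reached it, and 9 members with Ycongo, where 4.27% did.

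That shift changed with 1 control library. XX replicate 2 held the highest level of the 6 female libraries for 32 of 40 members, and within XX replicate 2 exceeded replicate 1 for 35 of 40, with a median fold between the replicates of 2.15. The summed level of all members was 3074 and 4279 CPM in XXYohio and 3230 and 3508 CPM in XXYcongo, against 4047 and 7505 CPM in XX bodies. Without XX replicate 2, 18 of 40 members lay below 0 with Yohio (median 0.11) and 29 of 40 with Ycongo (median -0.16). XX replicate 1 alone then stands for the control, and its spread is taken to be like that of the other groups. The XX library with the high sum was the one with 9.26% mitochondrial counts and the other XX library the one with 25.2%. In XXYohio, too, the library with 5.21% had the higher sum, whereas in XXYcongo the library with 33.5% did. The part of this share in the shift was not tested.

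With Yohio both libraries lay below both XX libraries for 12 members, where 20.1% of all genes did, and with Ycongo for 16, where 16.3% did. The members that lay lower in all 4 libraries with an added Y than in both XX libraries were 10 of 40, where 10.7% of all genes did so, and 0 lay higher in all 4 (10.9%). LysP was one of them. Its values with an added Y, at most 68.4 CPM, lay below the lower XX value of 125 CPM. The mean of both Y chromosomes against XX gave a log2 fold change of -1.34 ± 0.30 (SE, edgeR unadjusted p = 0.00172, adjusted p = 0.523). The value was -1.07 without XX replicate 2 (edgeR adjusted p = 0.965).

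Jon74E, a Jonah gene that stands alone on 3L, had 28.2 and 27.7 CPM in XXYohio and 23.9 and 12.4 CPM in XXYcongo, against 51.3 and 108 CPM in XX. The libraries with an added Y lay below both XX libraries. The mean change was -1.89 ± 0.40 (SE, edgeR unadjusted p = 0.00121, adjusted p = 0.523), and -1.19 without XX replicate 2. DESeq2 gave this gene an adjusted p of 0.0484 for the mean of both, its only call among the members, and edgeR without the filter on low counts called it with Ycongo (adjusted p = 0.00322).

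Of the trypsins, alphaTry, betaTry, iotaTry and thetaTry were among the 10. The level of thetaTry was 18.3 and 22.6 CPM in XXYohio and 27.5 and 22.8 CPM in XXYcongo, against 40.6 and 61.2 CPM in XX. The groups did not overlap. The mean of both Y chromosomes gave -1.22 ± 0.33 (SE, edgeR unadjusted p = 0.0053, adjusted p = 0.523), and -0.84 without XX replicate 2. The maltase Mal-A8 had 47.3 and 59.99 CPM in XXYohio and 36.4 and 46.3 CPM in XXYcongo, against 62.6 and 66.9 CPM in XX. By class, the median change with both Y chromosomes was -1.18 for the lysozymes, -1.05 for the trypsins, -0.88 for the Jonah proteases and -0.54 for the maltases. Leaving out XX replicate 2 gave medians of 0.15, -0.06, 0.14 and -0.41 in the same order.

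Other gene lists also lay mostly on one side of XX in these bodies, though not all on the same side. Of the 13 midgut identity genes, 1 lay above 0 for the mean of both Y chromosomes (median -0.99), and their sum was 489 and 452 CPM in XXYohio and 536 and 512 CPM in XXYcongo, against 753 and 694 CPM in XX, a sum that was not higher in XX replicate 2. Of 11 muscle and 11 photoreceptor genes 0 lay above 0 (medians -1.06 and -1.07), while 10 of 13 eggshell and yolk genes did (median 0.50). None of them was called by edgeR, and their part in the values of the members was not tested.

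In male bodies most members lay above the XY control with a further Y, and none was called. With edgeR 0 of 39 tested members and 0 of 12889 genes (0.0%) were called with Yohio, Ycongo or the mean of both. With Yohio 34 of 39 members lay above 0 (median 0.41, all genes -0.01) and with Ycongo 29 (median 0.20, all genes 0.04). At an unadjusted p under 0.05 there were 0 members with Yohio and 2 with Ycongo (LysE and LysP), where 0.466% and 7.39% of all genes reached it. Without XY replicate 1 the counts above 0 were 26 and 16, and without XYYcongo replicate 1 the count with Ycongo was 13 of 39 (median -0.44).

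The XYYcongo libraries were far apart. Their summed level of members was 6024 CPM in replicate 1 and 2427 CPM in replicate 2, with 10.1% and 40.1% of counts from mitochondrially encoded genes, and XYYohio bodies had 5444 and 4966 CPM, against 3590 and 4851 CPM in XY. Replicate 2 of XYYcongo was the lowest of the 6 male libraries for 19 of 40 members and replicate 1 the highest for 17. LysP had 15.5 and 33.2 CPM in XYYohio and 37.5 and 65.7 CPM in XYYcongo, against 17.8 and 27.6 CPM in XY, and LysE 13.5 and 9.91 CPM in XYYohio and 40.0 and 24.8 CPM in XYYcongo, against 11.1 and 15.3 CPM in XY. Both XYYcongo values of these lysozymes lay above XY, with edgeR adjusted p of 0.656 each. Both XYYohio libraries lay above both XY libraries for 12 members and below them for 3, where 9.52% and 9.33% of all genes did. Both XYYcongo libraries did so for 6 and 5 members, where 17.0% and 19.4% of all genes did. Above both XY libraries in all 4 libraries with a further Y lay 2 members, Jon65Aiv and gammaTry, where 2.96% of all genes did so, and below them lay 0 members (3.1%).

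**Figure D4:**
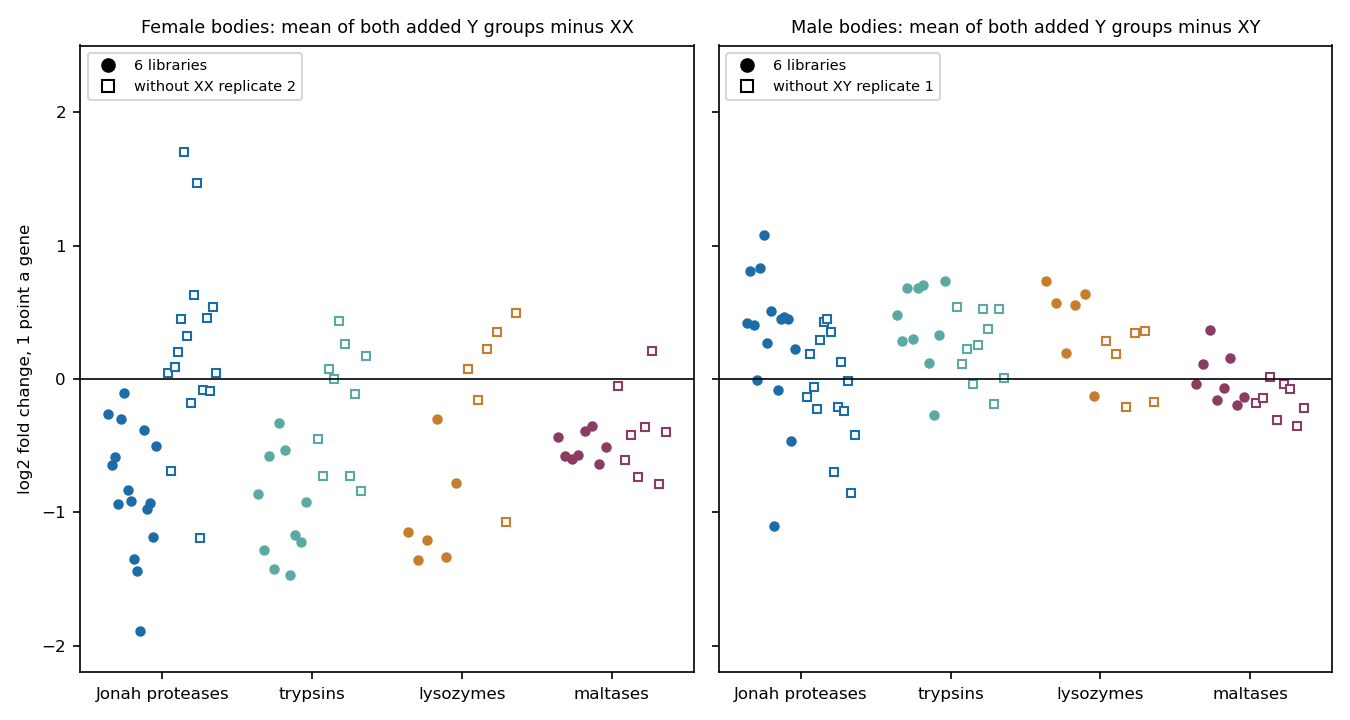
The log2 fold change of each tested member (points) for the mean of both added Y groups minus the control, in female bodies (left) and male bodies (right), with all 6 libraries (filled circles) and without 1 control library (open squares). In females 40 of 40 members lie below 0 with all libraries and 20 of 40 without XX replicate 2; in males 28 of 39 lie above 0 with all libraries and 19 of 39 without XY replicate 1.

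The difference between the sexes in the response was tested itself. In the fit on the 12 bodies, 38 of 40 members had a lower log2 fold change in females than in males with Yohio (median difference -0.98, all genes -0.03), and 38 of 40 with Ycongo (median -1.24, all genes -0.02). With edgeR 0 members and 0 of 13318 genes (0.0%) were called in either, and DESeq2 called 0 members. At an unadjusted p under 0.05 there were 4 members with Yohio and 5 with Ycongo, where 5.02% and 4.79% of all genes reached it. LysP gave the smallest with Ycongo (-2.33 ± 0.62 (SE), edgeR unadjusted p = 0.00254, adjusted p = 0.912) and thetaTry with Yohio (-1.72 ± 0.54 (SE), edgeR unadjusted p = 0.00703, adjusted p = 0.903). Without XX replicate 2 the counts below 0 were 25 and 30 of 40 and the medians -0.40 and -0.36.

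Between the added Y chromosomes, edgeR called 0 members with Ycongo against Yohio in female bodies and in male bodies (0.0% of all genes in each), with 1 and 2 members at an unadjusted p under 0.05, where 1.31% and 6.64% of all genes reached it. DESeq2 called 0 members in each. In the authors' deposited tables, 0 of the members given an adjusted p had one below 0.05 in any of the 10 tables that set an added Y against its control. With Ycongo and Yohio, those given one were 40 and 23 in female bodies and 24 and 9 in male bodies. They were 1 and 1 in ovaries, 5 and 9 in the CNS and 6 and 28 in testes, so most members were left out of several tables. The authors' deposited tables for female bodies put 39 of 40 members below 0 with Ycongo (median -0.56) and 37 of 40 with Yohio (median -0.41). For male bodies the authors' deposited tables put 30 of 40 members above 0 with Ycongo and 35 of 40 with Yohio. These tables come from the same series by a different fit, so they are no independent check of the direction.

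Outside whole bodies, nearly all members were close to absent. In ovaries 9 of 41 had 0 counts in all 6 libraries and 1 averaged at least 1 CPM. In the larval CNS 6 had 0 counts throughout and 12 averaged at least 1 CPM, and in testes 9 had 0 counts throughout and 7 averaged at least 1 CPM. With edgeR 39 of 40 members were called lower in ovary than in female body (36.6% of all genes), 39 of 40 lower in the CNS than in female body (42.1%) and 37 of 39 lower in testis than in male body (38.7%). Most of these members passed the filter on low counts only through the body libraries, since 2 passed in ovaries, 10 in the CNS and 9 in testes on their own, so the counts of members called lower are largely fixed by the filter. The tissue and body libraries were scaled apart for the levels and together for the tests, and CNS and body differ in life stage as well.

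Mal-A5 was the exception in both female tissues. Its ovary level was 166 and 146 CPM in XXYohio, 160 and 147 CPM in XXYcongo and 84.2 and 137 CPM in XX, and in the larval CNS it was 178 and 96.1 CPM in XXYohio, 163 and 107 CPM in XXYcongo and 148 and 173 CPM in XX. Female bodies had 43.3 and 70.3 CPM in XXYohio, 74.7 and 54.3 CPM in XXYcongo and 77.5 and 75.5 CPM in XX. In these separately scaled levels every ovary and CNS library lay above every body library. Mal-A5 was the only member called higher in ovary than in female body (140 ± 29.3 CPM against 65.9 ± 13.9 CPM, SD, n = 6; log2 fold change 0.60 ± 0.19 (SE), edgeR adjusted p = 0.023), where 14.1% of all genes were called higher. It was likewise the only one higher in the CNS (144 ± 34.7 CPM against 65.9 ± 13.9 CPM; 0.60 ± 0.21 (SE), edgeR adjusted p = 0.023), where 32.3% were. The edgeR call in ovary was lost without ovary XX replicate 2 (adjusted p = 0.0868) or ovary XXYohio replicate 1 (0.0611). That in the CNS was lost without body XXYohio replicate 1 (0.0592), body XXYcongo replicate 2 (0.0609), CNS XX replicate 2 (0.0612), CNS XXYohio replicate 1 (0.0853) or CNS XXYcongo replicate 1 (0.0782).

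Its neighbours in the run did not share this. Mal-A1 averaged 0.917 ± 1.35 CPM in ovaries and 0.198 ± 0.232 CPM in the CNS, against 433 ± 133 CPM in female bodies (SD, n = 6 each), and Mal-A6 0.487 ± 0.441 CPM in ovaries and 1.14 ± 1.29 CPM in the CNS, against 276 ± 89.2 CPM in female bodies. In testes Mal-A5 was low. It averaged 4.12 ± 0.829 CPM in testes, against 74.4 ± 9.51 CPM in male bodies (log2 fold change -4.49 ± 0.20 (SE), edgeR adjusted p = 4.69e-08), while Mal-A6 had 12.6 ± 2.40 CPM and Mal-A1 9.83 ± 2.81 CPM in testes, against 800 ± 298 CPM and 1225 ± 390 CPM in male bodies.

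LysE and LysD were the members with the highest levels per kilobase in testes, 179 and 88.0 CPM per kb. LysE (FBgn0004428) had 100 and 90.5 CPM in XYYohio, 136 and 79.0 CPM in XYYcongo and 73.7 and 144 CPM in XY testes. Male bodies had 13.5 and 9.91 CPM in XYYohio, 40.0 and 24.8 CPM in XYYcongo and 11.1 and 15.3 CPM in XY. In these separately scaled levels every testis library lay above every male body library. LysE was the only member called higher in testis (104 ± 29.4 CPM against 19.1 ± 11.5 CPM, SD, n = 6; log2 fold change 2.28 ± 0.24 (SE), edgeR adjusted p = 6.33e-06), where 38.6% of all genes were called higher. LysD averaged 42.2 ± 8.84 CPM in testes, against 37.2 ± 16.6 CPM in male bodies (-0.12 ± 0.34 (SE), edgeR adjusted p = 0.755), and LysB 2.71 ± 1.19 CPM in testes, against 5.78 ± 2.70 CPM in male bodies (-1.37 ± 0.39 (SE), edgeR adjusted p = 0.0071). LysP and LysX were near 0 in testes, with 0.565 ± 0.262 and 0.391 ± 0.240 CPM, against 32.9 ± 18.2 and 33.8 ± 11.2 CPM in male bodies. Because LysB, LysD and LysE are close copies, how their reads were divided limits each of these values. The XY testis libraries also held 33050 and 35570 CPM of the 8 seminal fluid genes, against 3455 and 5851 CPM in XY bodies. The testis libraries may thus include other parts of the male tract. Where in them the RNA of LysE and LysD arose was not tested. In ovaries LysB had 0 counts in all 6 libraries and LysE 3 counts in all, and in the CNS LysE had 4 counts in all.

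**Figure D5:**
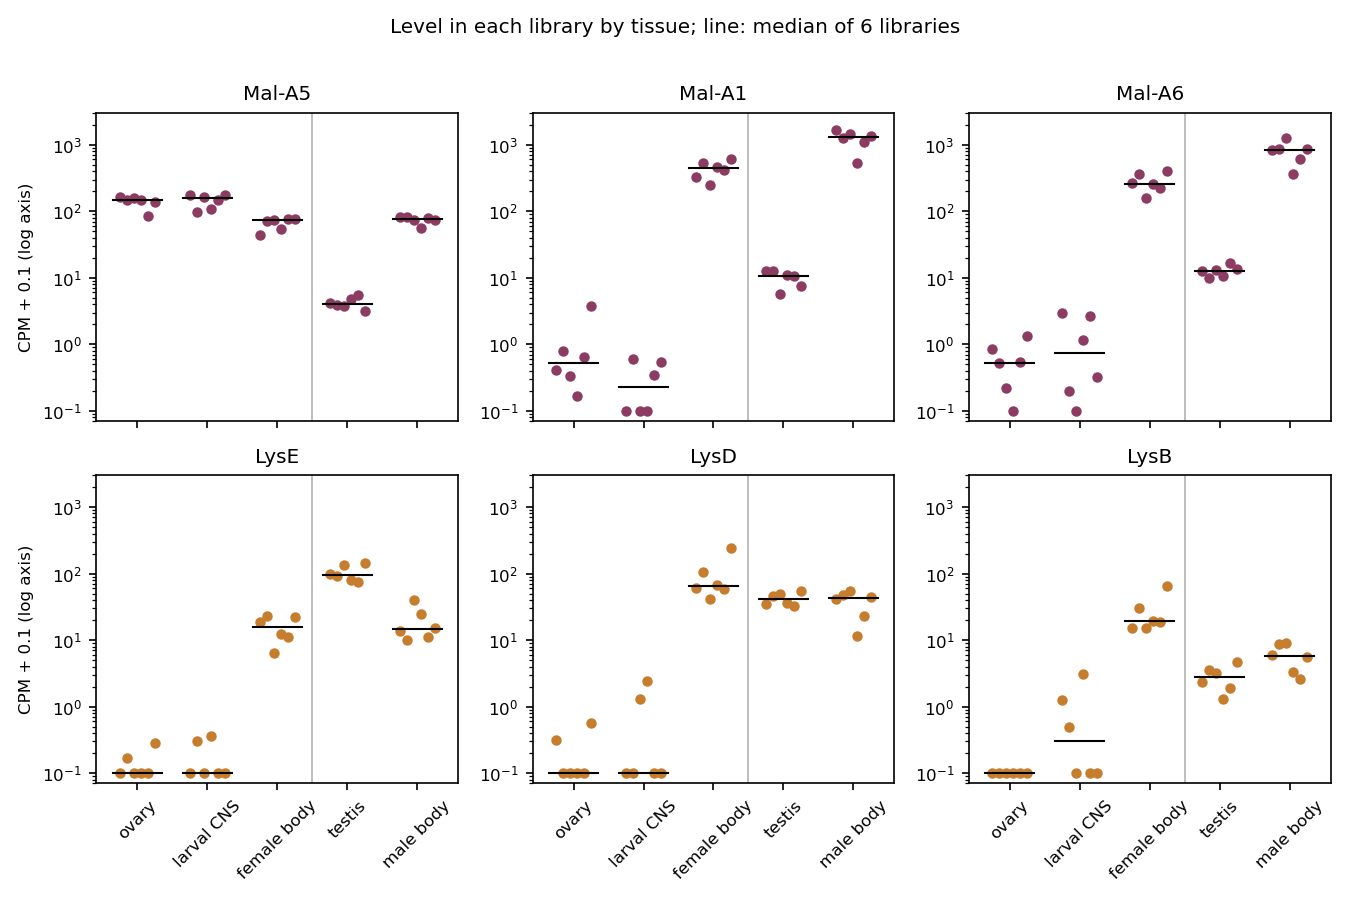
Level in CPM plus 0.1 on a log axis of 3 maltases (top) and 3 lysozymes (bottom) in each of 6 libraries (points) of ovary, larval CNS, female body, testis and male body, with the median (line). Mal-A5 lies between 84.2 and 166 CPM in ovaries and between 3.06 and 5.47 CPM in testes, and LysE lies between 73.7 and 144 CPM in testes and between 9.91 and 40.0 CPM in male bodies.

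No member was called by edgeR with an added Y in the other tissues (0 in each comparison). Only 2 members passed the filter on low counts in ovaries, 10 in the CNS and 9 in testes, so these counts say nothing of the others. In ovaries 0.0113% of all genes were called with Yohio, all of them higher. With Ycongo 0.283% were called in ovaries (0.0453% higher, 0.238% lower), and with the mean of both 0.215% (0.0227% higher, 0.193% lower). In the CNS 0.0403% were called with Yohio (0.0201% higher, 0.0201% lower), 0.0101% with Ycongo and 0.0403% with the mean of both (0.0302% lower). Ycongo against Yohio gave 0.0302% in the CNS, 0.0113% in ovaries and 0.0% in testes, and either Y against XY gave 0.0% in testes. At an unadjusted p under 0.05 there were 0 members with Yohio or Ycongo in ovaries (7.02% and 10.9% of all genes) and in testes (2.9% and 2.28%), and in the CNS 0 of 10 with Yohio (5.88%) and 2 of 10 with Ycongo (5.16%). DESeq2 called 0 members in each of these comparisons. Mal-A5 in ovaries averaged 156 ± 14.2 CPM in XXYohio and 153 ± 9.03 CPM in XXYcongo, against 110 ± 37.0 CPM in XX (SD, n = 2 each).

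In the CNS 2 libraries held Jonah RNA that the others did not. The summed Jonah level was 60.1 CPM in XXYohio replicate 1 and 65.6 CPM in XXYcongo replicate 2, and between 1.70 and 3.66 CPM in the remaining 4 libraries. Partly different genes carried it. In XXYohio replicate 1 it was Jon99Ciii with 16.7, Jon99Cii with 14.5 and Jon66Ci with 10.6 CPM, and in XXYcongo replicate 2 Jon65Aiv with 19.5, Jon99Ciii with 9.97 and Jon25Bii with 8.14 CPM. The second library also held 31.4 CPM of trypsins, among them epsilonTry with 15.1 CPM, and 6.95 CPM of lysozymes, whereas the trypsin sum was 0.575 CPM in the first. The replicates of both groups did not share this, with 2.28 CPM of Jonah RNA in XXYohio replicate 2 and 1.70 CPM in XXYcongo replicate 1. The midgut identity genes summed to 90.8 CPM in XXYohio replicate 1 and 99.1 CPM in XXYcongo replicate 2, inside the range of the remaining 4 libraries, 81.5 to 163 CPM. In XX bodies this list summed to 753 and 694 CPM, less than the 1620 and 3437 CPM of the Jonah proteases. A small gut share would be lost in that range, so these sums cannot tell whether gut RNA was present. The source of the Jonah RNA was not tested.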

How the data were processed

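The deposited files give, for each library, raw read counts per FlyBase gene without normalization, per the file headers and values. The submitters' processing notes name Bowtie2, SAMtools, Trim Galore, R 3.2.3 and DESeq2 1.8.1. The genome build, read counter and strandedness were not given in the sources used here. The authors' deposited tables hold log2 fold changes and adjusted p-values for each added Y, and "cs" in their names was read as Yohio, which the labels give for those libraries. Members and lists were chosen with earlier results of these data known. Every member could be named; 3 per class with the highest body level and members called in bodies were taken to be given by library, others by counts and ranges. Further genes given by library, among them Jon74E and Mal-A5, were chosen after their values were seen.

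Counts were fitted with edgeR 4.0.16 in R 4.3.3: filterByExpr with a minimum count of 10, TMM scaling, quasi-likelihood tests and Benjamini-Hochberg adjustment over all genes tested. Fits of an added Y used the 6 libraries of a tissue and sex, with 3 residual degrees of freedom; those between sexes or tissues used 12 libraries, with 6. DESeq2 1.42.0 was an alternative. The fits were tested on simulated data with changes of 1 and 2 log2 units. In female bodies (XXYohio against XX) 1.01% and 11.1% of the changed genes were called. In male bodies (XYYohio against XY) 0% and 3.03% were, and for XX against XY 1.02% and 16.3%. False calls numbered 1, 1 and 5 in the same order, and most of the changed genes were missed in this test. For XX against XY, 98 of 12925 genes were changed at each size, whereas 35.1% of all genes were called in the measured libraries. The share missed where so many genes differ was not tested. Gene positions and exon lengths came from Ensembl BDGP6.54, and 16649 of 16868 gene IDs were matched to a symbol. Limits for a count of 0 cover counting error only.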

Additional observations from a re-analysis of the deposited data

How the results depend on the processing

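Each comparison was repeated with RLE scaling, without the filter on low counts, with DESeq2, without mitochondrially encoded genes, with each library left out, and, where it applied, with only the 4 libraries of a contrast or all 12 bodies in one fit; raw totals and TMM over all 30 libraries were added after seeing the data. Without the filter, edgeR called 1 member lower with Ycongo (Jon74E) and 2 with the mean of both (Jon74E and epsilonTry) in female bodies, where 0 were called with it. It also called 2 lower with Ycongo (Mal-A1 and alphaTry) and 1 with the mean of both (Mal-A1) in ovaries, and in the CNS 2 higher with Yohio, 2 with Ycongo, 2 with the mean of both and 2 in Ycongo against Yohio, all among Jon99Cii, Jon99Ciii, Jon65Aiv and epsilonTry, which stood in the 2 libraries named above. Over all genes, 266 and 203 of 13241 were then called in ovaries, and 264, 90, 112 and 236 of 13964 in the CNS, in the order named. DESeq2 called 1 member lower in female bodies with the mean of both (Jon74E). Over all genes, calls in female bodies were 58 with Yohio, 48 with Ycongo and 104 with the mean without the filter, and 11, 6 and 15 with DESeq2, against 0 each with edgeR. Leaving out 1 library gave 8 to 24 calls among members for XX against XY (22 with all), 23 to 30 for 3 female against 3 male groups (26 with all), 39 to 40 for ovary and for CNS against body, 37 to 38 for testis against body, and 0 for every added Y. No result turned its direction past the threshold. Of the alternative counts over the members, 345 stayed within 1.5 times the count first given and 12 did not. Many of the 345 were counts of 0 for an added Y, or counts against body that the filter largely fixes. The tally therefore says little of the comparisons between the sexes.

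The replicate numbers did not pair the samples throughout: deviations from the group means correlated between -0.436 and 0.565 over pairs of groups. In female bodies XX correlated with XXYohio at 0.517 and with XXYcongo at 0.446, and these with each other at -0.109. In male bodies XY correlated with XYYohio at 0.565, while the pairs with XYYcongo gave -0.285 and -0.362. These values do not settle whether some body libraries were paired. With replicate number as a block, 22 members were called for XX against XY, 26 for 3 female against 3 male groups and 0 for each added Y in bodies, as without it.

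With 2 libraries a group and a common biological coefficient of variation of 0.406 (female bodies) and 0.374 (male bodies), missing calls do not show that levels were alike. Outside bodies most members stood near the limit that a count of 0 allows, and differences there were not detectable at this depth.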

Other observations

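Neighbours in a run had unequal fold changes between the sexes. In the 3 female against 3 male groups comparison, the Jon65A run held Jon65Ai and Jon65Aii, with log2 fold changes of 3.60 and 2.95, beside Jon65Aiii and Jon65Aiv, with 0.72 and 0.91. In the Jon99C run Jon99Ciii had 1.43 and was called by edgeR (adjusted p = 0.00416), while Jon99Ci had 0.27 and was not (adjusted p = 0.529). In the trypsin run zetaTry had -0.29 and etaTry -0.18, beside thetaTry with 1.05 and gammaTry with 1.49, with alphaTry at 0.36 and betaTry at 0.30. These differences between neighbours were not tested.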
